A study of Drosophila melanogaster with 25 samples.

Results

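Brains of male Drosophila melanogaster after long-term photodynamic exposure (PDE) were compared with brains of male controls. The comparison took every male library of the series by its label, 13 of 25 libraries: male PDE (n = 6) and male control (n = 7). The remaining 12 libraries came from female brains, PDE (n = 7) and control (n = 5), and share no library with the male comparison. The treatment is called PDE in the series' design, PDT in the titles and photodynamic therapy in the treatment label, and these were read as 1 treatment. The labels give no strain, genotype, age, photosensitising compound, dose, light or length of exposure. They also do not say whether a library holds 1 brain or a pool, so p-values measure the spread between these libraries, which may in part be technical.

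In a photodynamic exposure, light and a photosensitising compound together form reactive oxygen species inside the tissue. Flies answer oxidative and other stress with phase I and II detoxification enzymes, DNA damage and ribosome stress regulators such as Xrp1, and secreted stress peptides such as the Turandot proteins, which are made largely in the fat body under JAK-STAT control. Brains hold little fat body but often carry some with them when dissected, and the retina may be attached to the optic lobes.

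Few genes passed the adjusted threshold in male brains, which does not show that the others were unchanged. Of 7766 genes tested, 10 (0.129%) passed an adjusted p of 0.05, 9 of them (0.116%) higher after PDE and 1 (0.0129%) lower. The Turandot genes TotA, TotC and TotM rose by 4.11 to 4.89 on the log2 scale, the capsid genes Arc1 and Arc2 by 1.07 to 1.54, and Xrp1, Ugt35A1, CG14695 and Invadolysin by 0.24 to 0.91. CG9377 fell by 0.97. Each change is the difference of the group means of log2(RPKM + 1), PDE minus control, with its standard error and adjusted p from limma. RPKM are reads scaled to gene length and to the reads of the library, and the added 1 makes a change of a low gene smaller than its ratio of RPKM.

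**Figure D1:**
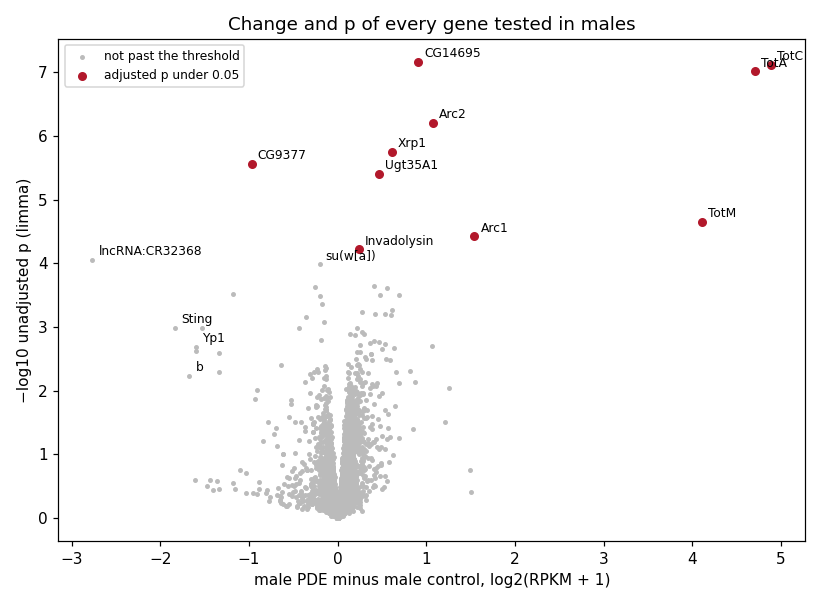
Each point is 1 of the 7766 genes tested, with its change in log2(RPKM + 1), male PDE minus male control, on the x axis and −log10 of its unadjusted limma p on the y axis. The 10 red genes passed an adjusted p of 0.05, and the Turandot genes lie farthest to the right, beyond a change of 4.

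The libraries differed in depth by group. Totals recovered from the RPKM steps were 11.2 M to 28.3 M reads in male PDE (median 26.5 M) and 27.8 M to 58.7 M in male control (median 31.7 M), with 3 PDE libraries below every control (exact two-sided permutation p = 0.00583, adjusted p = 0.0524 over 9 library measures). The male-specific RNA roX1 was at 1830 to 2160 RPKM in the 13 male libraries and at 9.58 to 36.8 RPKM in the 12 female libraries. Neuronal and glial markers were high in both groups: nSyb had 275 to 298 RPKM in male PDE and 293 to 317 in male control, and repo had 23.9 to 33.0 RPKM in male PDE and 26.0 to 31.3 in male control, whereas elav was listed at 0.0258 RPKM or less and moody at 0 in every male library. Summed RPKM of 14 retina markers spanned 139 to 8757 in male PDE and 81.7 to 9622 in male control, and exceeded 5000 in male PDE 3 and in male controls 4, 5 and 6. Among the 14, Arr2 was listed at 0 in every male library, although Arr1 reached 1265 RPKM in male control. A listed 0 therefore need not mean that the RNA was absent. The sums of the other marker lists did not pass after adjustment either (exact permutation, adjusted p of 0.202 to 0.561, retina markers included). Glial markers (7) summed to 1075 to 1359 RPKM in male PDE and 846 to 1188 in male control, and neuronal markers (8) to 628 to 680 RPKM in male PDE and 652 to 681 in male control. Haemocyte markers (8) summed to 20.4 to 47.4 RPKM in male PDE and 16.3 to 27.4 in male control, and fat body markers (9) to 55.5 to 241 RPKM in male PDE and 78.7 to 197 in male control. Muscle markers (8) summed to 22.3 to 85.7 RPKM in male PDE and 16.0 to 43.9 in male control, and markers of testis and accessory gland (10) to 1.25 to 3.59 RPKM in male PDE and 0.668 to 1.71 in male control.

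The Turandot genes gave the largest rises. They encode small secreted proteins that accumulate in haemolymph after heat, infection, wounding or oxidants. TotA (FBgn0028396; 3R, 20871036 to 20871700, plus strand) had 127 RPKM in the lowest, 295 at the median and 1302 in the highest male PDE library, against 5.94, 10.3 and 24.5 RPKM in male control. The lowest exposed library thus lay above the highest control, and the group means differed 36.2-fold, or 22.5-fold without male PDE 6, the highest library (log2 change 4.71 ± 0.47 SE, adjusted p = 0.00025; 4.31 ± 0.36 without male PDE 6). TotC (FBgn0044812; 3R, 20872988 to 20873580, plus strand), its neighbour, had 11.9, 45.4 and 192 RPKM in male PDE, against 0.23, 0.416 and 1.0 RPKM in male control. The control values rest on 5 to 22 reads, the PDE values on 79 to 3201, and the log2 change was 4.89 ± 0.47 (adjusted p = 0.00025). TotM (FBgn0031701; 2L, 5329857 to 5330464, plus strand) had 3.67, 29.1 and 207 RPKM in male PDE, against 0.0591, 0.52 and 1.09 RPKM in male control, where it had 1 to 20 reads. Its change was 4.11 ± 0.65 (adjusted p = 0.0216), again with no overlap of the groups.

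Male PDE 6 was the highest library for all 3 genes, and the next highest for TotA was male PDE 4 at 522 RPKM. Of the 8 Turandot genes in the table only these 3 reached the level needed for testing. TotB had at most 1.22 RPKM in male PDE and 0.179 in male control, TotZ at most 0.284 in male PDE and 0.0417 in male control, and TotE, TotF and TotX were listed at 0 in every male library. As with Arr2 and moody, a listed 0 need not mean that the RNA was absent. The Turandot genes resemble each other in sequence, and no source used here says how reads that fit several of them were counted. Whether they were made in brain cells or in attached fat body cannot be told from these libraries. Of the 6 fat body markers tested, 0 passed, 5 were negative and 1 positive, and the median change was −1.01, with an unadjusted p under 0.05 for 4 of the negative ones (Yp1, Yp2, Yp3 and fit). The positive one, apolpp, had 29.97 to 48.3 RPKM in male PDE and 25.3 to 37.4 in male control, and Yp1 had 3.14 to 18.7 RPKM in male PDE and 6.85 to 34.7 in male control. The remaining negative marker, to, had 16.2 to 180 RPKM in male PDE and 25.1 to 93.2 in male control. Yp1, Yp2 and Yp3 are made in females by fat body and ovary. Whether the median of −1.01 follows the amount of fat body in males was not tested. The summed fat body markers overlapped, with 55.5 to 241 RPKM in male PDE and 78.7 to 197 in male control. Male PDE 6, the highest library for the 3 Turandot genes, also had the highest sum, at 241 RPKM. Male PDE 4, the next highest for TotA, had a sum of 82.2 RPKM. The part of fat body RNA in the Turandot values was not tested. TotM lost its call when any 1 of male PDE 3, 4 and 5 or male controls 3, 4, 5 and 7 was left out (adjusted p 0.0544 to 0.0803, change 4.01 to 4.15).

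JAK-STAT pathway genes gave no call. Of 6 members tested 0 passed, 4 were positive and the median change was 0.04, against a median of 0.01 over all genes tested. Stat92E, the transcription factor, averaged 22.9 ± 1.49 RPKM in male PDE and 21.7 ± 1.24 in male control (SD; change 0.07 ± 0.05, adjusted p = 0.999), and dome, the receptor, 9.36 ± 0.89 RPKM in male PDE and 10.02 ± 0.386 in male control (−0.09 ± 0.05, adjusted p = 0.999). Among 16 members tested of the JNK pathway and its targets 0 passed either, with a median of 0.03.

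Arc1 and Arc2 are neighbouring genes that descend from retrotransposon Gag sequences, and the Arc1 protein forms capsids that carry RNA between neurons and muscle. Arc2 (FBgn0033928; 2R, 14361924 to 14362825, plus strand) had 5.48 RPKM in the lowest, 8.18 at the median and 10.2 in the highest male PDE library, against 2.24, 3.25 and 3.74 RPKM in male control. Its groups did not overlap (change 1.07 ± 0.12, adjusted p = 0.0012). Arc1 (FBgn0033926; 2R, 14357927 to 14360297, minus strand) had 31.3, 79.2 and 121 RPKM in male PDE, against 17.5, 23.5 and 35.7 RPKM in male control. It is the only called gene whose groups overlapped, since male PDE 2 at 31.3 RPKM lay under male control 6 at 35.7 (change 1.54 ± 0.26, adjusted p = 0.0323). Arc1 lost its call in 10 of the 13 fits that left out 1 library, namely male PDE 1, 3, 4, 5 or 6 or male control 2, 3, 4, 5 or 7 (adjusted p 0.0564 to 0.106, change 1.39 to 1.61), and reads may be shared between both genes. Of the list of 9 tested Arc and activity-induced genes these were the 2 that passed, and the list's median change was −0.003.

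Xrp1, a transcription factor induced by DNA damage and by ribosomal protein loss, was the called regulator. Xrp1 (FBgn0261113; 3R, 18914968 to 18926989, plus strand) had 23.9, 29.2 and 31.3 RPKM in male PDE, against 15.8, 17.8 and 20.001 RPKM in male control. All 6 exposed libraries lay above all 7 controls (change 0.61 ± 0.08, adjusted p = 0.00274). It was the 1 called gene among 14 tested of the stress kinase, Xrp1 and ER stress list, whose median was 0.02. Gadd45, a stress-inducible activator of p38 and JNK kinases, had 4.96, 6.22 and 8.86 RPKM in male PDE, against 2.90, 4.27 and 5.20 RPKM in male control (change 0.54 ± 0.12, adjusted p = 0.199). With the library total as a covariate in the limma fit, Gadd45 passed (change 0.75, adjusted p = 0.0463).

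The remaining called genes changed by less than the Turandot and Arc genes. CG14695 (FBgn0037850; 3R, 10878204 to 10879319, minus strand) had 4.96, 5.5 and 6.83 RPKM in male PDE, against 2.15, 2.65 and 3.31 RPKM in male control, and had the smallest p of all genes (change 0.91 ± 0.09, adjusted p = 0.00025). It shares 54 bases with Sodh2 on the opposite strand. Ugt35A1 (FBgn0026315; 3R, 11170817 to 11172664, minus strand), an enzyme that joins sugars to small hydrophobic molecules, had 3.57, 3.91 and 4.60 RPKM in male PDE, against 2.32, 2.71 and 2.95 RPKM in male control (change 0.46 ± 0.06, adjusted p = 0.00439). Both genes were separated between the groups without overlap.

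Invadolysin (FBgn0086359; 3R, 10144668 to 10159134, plus strand), a metalloprotease linked to mitosis and lipid storage, had 31.8, 33.5 and 37.7 RPKM in male PDE, against 27.9, 29.1 and 30.2 RPKM in male control. This 1.19-fold difference of means (change 0.24 ± 0.04, adjusted p = 0.047) was the smallest called and lost its call in 12 of the 13 fits with 1 library left out, that without male PDE 2 being the exception (adjusted p 0.0713 to 0.140). CG9377 (FBgn0032507; 2L, 13359901 to 13361565, minus strand) had 6.14, 7.13 and 8.35 RPKM in male PDE, against 11.2, 14.5 and 21.1 RPKM in male control. It is the 1 gene called lower (change −0.97 ± 0.13, adjusted p = 0.00355), with every exposed library below every control. With the library total, which was lower in PDE, as a covariate, 6 of the 10 calls remained; CG9377 had a change of −0.92 (adjusted p = 0.078), Ugt35A1 0.39 (0.0853), Arc1 1.75 (0.084) and Invadolysin 0.26 (0.112). When the spread was estimated from all 25 libraries, Ugt35A1 (adjusted p = 0.275) and Invadolysin (0.0825) lost their calls. When recovered reads were fitted with voom, TotC (change 6.66, adjusted p = 0.133) and TotM (6.17, 0.408) lost theirs. With a pseudocount of 5, TotM had a change of 2.53 (adjusted p = 0.178) and Invadolysin 0.21 (0.0533), and with no filter on low values TotM and Invadolysin (0.0627 each) and Arc1 (0.0795) did not pass. Invadolysin also missed the threshold with the retina marker level as a covariate (adjusted p = 0.066). Of the 10 called genes, 6 lie on 3R, which holds 1914 of the 7766 genes tested.

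**Figure D2:**
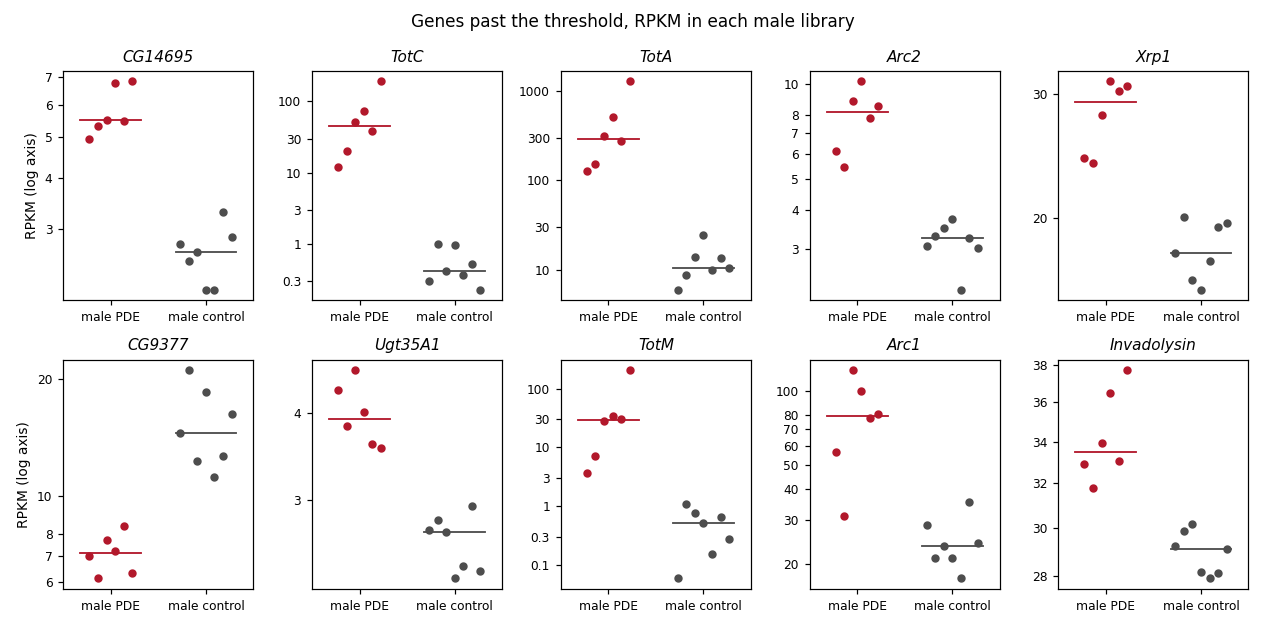
RPKM on log axes of the 10 called genes, 1 point per library (6 male PDE in red, left; 7 male control in grey, right), with a line at the group median. The groups are separate for 9 genes, and Arc1 overlaps through male PDE 2 at 31.3 RPKM.

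Groups that do not overlap were rare: 26 of 7766 genes (0.335%), 16 above (0.206%) and 10 below (0.129%) all controls. They included 9 of the 10 called genes, and of the 20 genes of next smallest p 1 lay above and 7 below all controls. These 20, 10 positive and 10 negative, did not pass and are given as values.

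Of the 7 below all controls, 3 are linked to splicing. Splicing genes had already been seen lower in earlier results of these data, so this count is no test of them. su(w[a]), an RNA-binding protein that regulates splicing including its own, had 17.0, 18.5 and 19.1 RPKM in male PDE, against 20.3, 21.0 and 23.0 RPKM in male control (change −0.20 ± 0.04, adjusted p = 0.0674). CG4887, related to the human splicing factors RBM5 and RBM10, had 80.1, 89.5 and 93.4 RPKM in male PDE, against 97.0, 105 and 118 RPKM in male control (change −0.25 ± 0.05, adjusted p = 0.128). Arglu1, whose human counterpart is a splicing and transcription cofactor, had 130, 134 and 140 RPKM in male PDE, against 144, 154 and 172 RPKM in male control (change −0.20 ± 0.04, adjusted p = 0.135). Each of these 3 genes had at least 4767 reads in every male library, and the ratio of the PDE mean to the control mean was 0.836 to 0.868. However, su(w[a]) shares 1670 bases with CG14630, 1500 with CG3021 and 2362 with Rpp21 on its own strand. It also shares 12720 bases with CG11638 on the opposite strand, and how shared reads were counted is not given. Over all 19 splicing regulators, a list that holds genes lower in earlier results of these data, 0 passed, 11 were negative and the median change was −0.02. PNUTS, a nuclear regulator of protein phosphatase 1, was also below all controls (79.5, 81.7 and 89.6 RPKM in male PDE, against 90.6, 94.3 and 102 RPKM in male control; adjusted p = 0.17).

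Sting, lncRNA:CR32368 and CG17264 were the other 3 below all controls, and in each of them male controls 1 and 2 stood above the rest. Sting, the receptor for cyclic dinucleotides that activates antiviral genes, had 3.65, 4.67 and 6.25 RPKM in male PDE, against 8.12, 15.3 and 72.5 RPKM in male control, with male controls 1 and 2 at 72.5 and 53.6 RPKM and the other 5 at 15.8 or less (change −1.83 ± 0.44, adjusted p = 0.264). lncRNA:CR32368 had 6.53, 9.54 and 13.2 RPKM in male PDE, against 29.2, 50.2 and 285 RPKM in male control, where controls 1 and 2 had 285 and 252 RPKM (change −2.77 ± 0.51, adjusted p = 0.0622). CG17264 had 0.0298, 0.166 and 0.333 RPKM in male PDE, against 0.647, 1.24 and 4.31 RPKM in male control (change −1.18 ± 0.25, adjusted p = 0.135). It reached the level needed for testing only through male controls. With male controls 1 and 2 left out, an alternative chosen after the data were seen, the changes were smaller but so was the spread, and all 3 passed: Sting at −1.18 ± 0.18 (adjusted p = 0.0201), lncRNA:CR32368 at −2.01 ± 0.19 (0.00189) and CG17264 at −0.82 ± 0.11 (0.0101). Leaving out the 2 highest controls of these genes lowers their spread by construction, so these p-values are no independent test of them. In the same fit 7 of the 10 calls remained, and Arc1 (change 1.56, adjusted p = 0.0952), TotM (4.12, 0.0774) and Invadolysin (0.25, 0.112) lost theirs. CG17224, picked after its values were seen, showed the same 2 controls high, at 17.2 and 14.6 RPKM, with 0.474 to 3.09 RPKM in male PDE and 2.09 to 3.15 RPKM in the other controls.

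Male controls 1 and 2 also differed from controls 3 to 7 in genes of the ovary, which passed only in the fit without those 2 controls and were picked for that. Vm34Ca, an eggshell protein of the ovarian follicle cells, had 0 to 0.432 RPKM in male PDE, 0 and 0.0674 RPKM in male controls 1 and 2, and 2.08 to 5.59 RPKM in male controls 3 to 7. dhd, a thioredoxin of the egg, had 0 to 1.03 RPKM in male PDE, 0 and 0.0347 RPKM in male controls 1 and 2, and 1.59 to 2.99 RPKM in male controls 3 to 7. Over all 13 libraries neither passed (adjusted p = 0.527 and 0.671). Vm34Ca reached the level needed for testing only through male controls 3 to 7, and dhd through these and male PDE 1. Leaving out the 2 lowest controls of both genes lowers their spread by construction, so their passing is no independent test. The yolk protein genes Yp1, Yp2 and Yp3, made in females by fat body and ovary, had medians of 4.34, 3.49 and 3.04 RPKM in male PDE, against 21.8, 17.0 and 10.9 RPKM in male control, where control 1 was lowest for all 3 (changes −1.60 ± 0.42, −1.53 ± 0.37 and −1.33 ± 0.36; adjusted p 0.264 to 0.408). How such RNA came into male libraries was not tested.

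**Figure D3:**
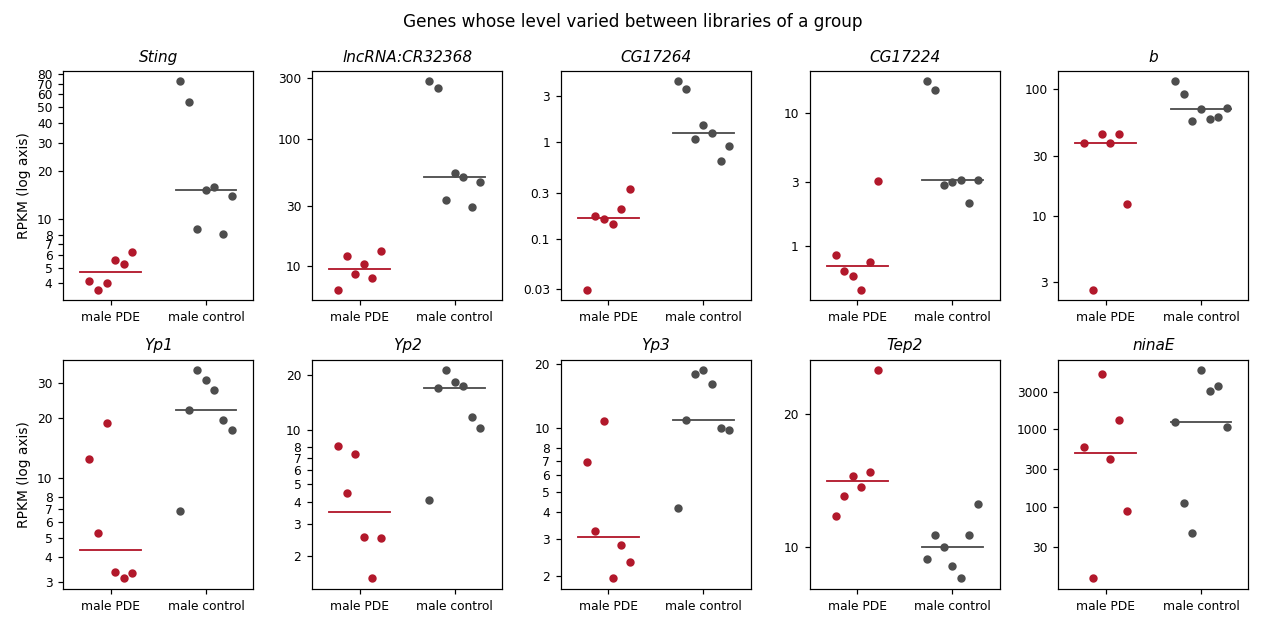
RPKM on log axes of 10 genes whose level differed widely between libraries of 1 group (male PDE left in red, male control right in grey, 1 point per library in replicate order from left to right, line at the median). Male controls 1 and 2 are the 2 high points for Sting, lncRNA:CR32368, CG17264 and CG17224, and ninaE spans 11.9 to 5078 RPKM in male PDE and 45.5 to 5697 RPKM in male control.

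Detoxification genes were mostly positive but small in change. Of 15 UDP-glycosyltransferases tested 1 rose (Ugt35A1), 12 were positive and the median change was 0.14. Ugt317A1 had 5.20, 6.66 and 8.28 RPKM in male PDE, against 3.90, 4.82 and 5.52 RPKM in male control (change 0.42 ± 0.09, adjusted p = 0.199). Of 32 cytochrome P450s 0 passed, 25 were positive and the median was 0.11, led by the mitochondrial Cyp12c1 at 2.34 ± 0.754 RPKM in male PDE and 1.33 ± 0.326 in male control (change 0.50 ± 0.13, adjusted p = 0.377). Of 26 glutathione S-transferases 0 passed, 20 were positive and the median was 0.08. GstE1, an abundant member that conjugates lipid peroxidation products, had 137, 201 and 287 RPKM in male PDE, against 105, 135 and 149 RPKM in male control (change 0.60 ± 0.14, adjusted p = 0.199). Without male PDE 2, whose 137 RPKM was the lowest of the exposed libraries, GstE1 was among 6 further genes called, with CG12868, CG3008, ver, Ercc1 and CG10638. Of the fits that left out 1 library, this gave the most calls. Male PDE 2 was also the lowest exposed library for ver, Ercc1 and CG10638. Leaving it out raises such changes by construction, so these calls are no independent test. Over all genes tested 58.7% were positive, and 433 (5.58%) had an unadjusted p under 0.05, 311 (4%) of them positive.

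The enzymes that remove superoxide and peroxide did not pass. Sod1 averaged 219 ± 22.2 RPKM in male PDE and 208 ± 17.4 in male control (SD), Sod2 80.6 ± 8.1 RPKM in male PDE and 84.3 ± 5.75 in male control, and Cat (catalase) 16.2 ± 3.06 RPKM in male PDE and 15.2 ± 1.12 in male control. Their changes were −0.07 to 0.08 (adjusted p = 0.999 each). The Nrf2 homologue cnc averaged 3.79 ± 0.209 RPKM in male PDE and 3.70 ± 0.396 in male control, and its inhibitor Keap1 5.20 ± 0.545 RPKM in male PDE and 5.37 ± 0.416 in male control. Among the 12 tested of that list 0 passed and the median was 0.02, and among 12 peroxiredoxins and thioredoxins 0 passed with a median of 0.08. Heat shock genes gave 0 of 17, with Hsp68 at 2.96 ± 0.597 RPKM in male PDE and 2.08 ± 0.514 in male control (change 0.37 ± 0.12, adjusted p = 0.646).

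DNA repair and replication genes gave 0 of 15 called, 14 positive and a median of 0.07. ver, a telomere capping protein, had 3.05, 4.44 and 4.80 RPKM in male PDE, against 2.005, 2.82 and 3.27 RPKM in male control (change 0.48 ± 0.10, adjusted p = 0.135). Ku80, of non-homologous end joining, averaged 3.91 ± 0.311 RPKM in male PDE and 3.13 ± 0.377 in male control (change 0.25 ± 0.07, adjusted p = 0.363). Among 10 genes of p53 and apoptosis 0 passed and the median was −0.01. Of 6 axon degeneration genes 0 passed; Sarm, whose NAD-cleaving protein drives axon loss, had 4.27, 4.46 and 4.65 RPKM in male PDE, against 3.18, 3.69 and 4.33 RPKM in male control (change 0.22 ± 0.05, adjusted p = 0.264), and it shares 4152 bases with CG7565 on the opposite strand. LManI, a lysosomal alpha-mannosidase, was above all controls, with 2.05, 2.27 and 3.78 RPKM in male PDE, against 1.11, 1.45 and 1.78 RPKM in male control (change 0.56 ± 0.11, adjusted p = 0.128).

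Immune genes gave no call in males. Of 20 antimicrobial and Bomanin peptide genes 0 passed, 16 were positive and the median was 0.12, but without male PDE 6 the split was 8 positive to 12 negative and the median −0.06. Of 18 Toll and IMD genes 0 passed, with a median of 0.02. Tep2, a thioester protein that binds microbes, had 11.8, 14.1 and 25.1 RPKM in male PDE, against 8.49, 9.99 and 12.5 RPKM in male control (change 0.54 ± 0.14, adjusted p = 0.356). Male PDE 6, the library of the highest Turandot levels, was also the highest for Tep2. Of the haemocyte markers NimC1, a phagocytic receptor, averaged 3.57 ± 2.48 RPKM in male PDE and 1.36 ± 0.282 in male control (change 0.81 ± 0.24, adjusted p = 0.527), and PPO1 was listed at 0 in every male library. The part of haemocyte RNA in these values was not tested.

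Phototransduction genes had mostly negative changes, with a spread between libraries larger than the difference between groups. Of 24 tested 0 passed, 20 were negative and the median was −0.43. ninaE, the major rhodopsin of the outer photoreceptors, had 11.9, 492 and 5078 RPKM in male PDE, against 45.5, 1205 and 5697 RPKM in male control (change −1.34 ± 1.40, adjusted p = 0.999). With the 4 libraries over 5000 summed RPKM of retina markers left out (male PDE 3 and male controls 4, 5 and 6; chosen after the data were seen), 15 of the 24 genes were positive and the median was 0.05, so the direction of this list depended on those 4 libraries. In the same 9 libraries 3 of the 10 calls remained, TotA, CG14695 and CG9377; the lost calls had changes of 0.41 (Ugt35A1), 0.58 (Xrp1), 1.004 (Arc2), 1.37 (Arc1), 4.04 (TotM) and 4.90 (TotC), with adjusted p of 0.0524 to 0.639, and Invadolysin had 0.21 (adjusted p = 0.852).

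Neuronal and housekeeping lists lay close to the all-gene median. Cytosolic ribosomal proteins had 0 of 83 called (median 0.01), mitochondrial ribosomal proteins 0 of 70 (0.03), respiratory complex I 0 of 32 (0.001), complexes II to V 0 of 35 (−0.02), glycolysis and the TCA cycle 0 of 24 (0.002) and the proteasome 0 of 31 (0.06, with 26 positive). The medians of cytosolic ribosomal proteins and complex I were negative under median centring, quantile normalisation and a depth covariate. That of mitochondrial ribosomal proteins was positive under these 3 settings and negative without the 4 retina-rich libraries, that of complexes II to V was negative under them and positive without male controls 1 and 2, and no direction is drawn from any of these lists. Neuropeptides gave 0 of 22 (−0.02), voltage-gated channels 0 of 18 (−0.004), vesicle release 0 of 14 (0.004), nicotinic receptor subunits 0 of 9 (−0.01), transmitter genes 0 of 13 (0.01) and the circadian clock 0 of 11 (−0.01). Crz, the stress-related neuropeptide corazonin, averaged 120 ± 20.9 RPKM in male PDE and 147 ± 25.9 in male control (change −0.28 ± 0.12, adjusted p = 0.826). nSyb, the neuronal synaptobrevin, averaged 289 ± 7.52 RPKM in male PDE and 304 ± 9.21 in male control (change −0.08 ± 0.03, adjusted p = 0.835). All 6 glial markers tested were positive (median 0.17, 0 called), among them Gat, the glial GABA transporter, at 133 ± 15.5 RPKM in male PDE and 114 ± 17.1 in male control (change 0.23 ± 0.10, adjusted p = 0.862). In lists of autophagy (0 of 20, median 0.02), lipid synthesis and droplets (0 of 14, 0.08), iron and heme (0 of 10, −0.04), insulin, TOR and FOXO (0 of 13, 0.001), eye pigments (0 of 8, 0.02), dosage compensation (0 of 7, 0.01), thioester proteins (0 of 4, −0.01) and Sting with antiviral genes (0 of 5, −0.05) no member passed either. RNA of fewer cells of a type and less RNA per cell cannot be told apart in these bulk libraries.

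**Figure D4:**
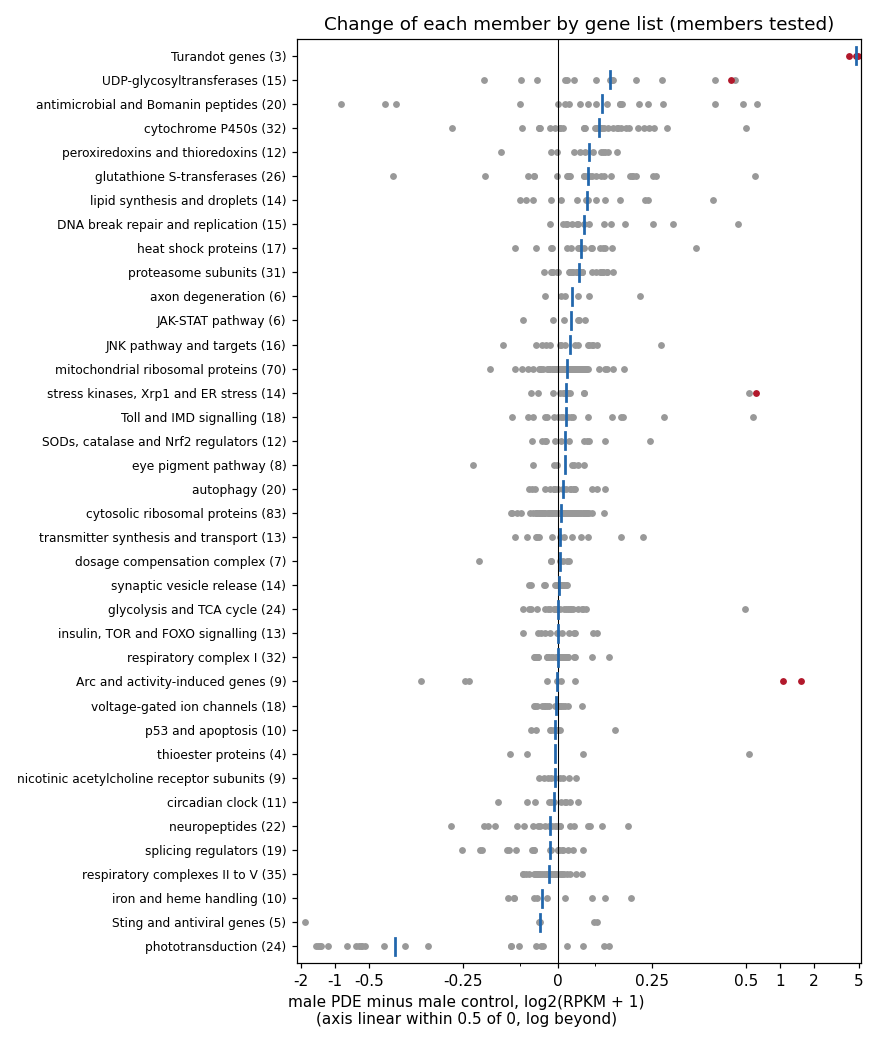
Change in log2(RPKM + 1), male PDE minus male control, of every tested member of 38 gene lists (number tested in brackets), 1 point per gene, red where the adjusted p was under 0.05, with a blue bar at the list's median. The axis is linear within 0.5 of 0 and logarithmic beyond; red points are found in 4 lists, Turandot, UDP-glycosyltransferases, Arc and Xrp1.

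Outside these lists, b was picked after its values were seen. It encodes an aspartate decarboxylase that makes beta-alanine for the cuticle, and had 2.63, 37.9 and 44.6 RPKM in male PDE, against 56.7, 70.4 and 116 RPKM in male control (change −1.67 ± 0.51, adjusted p = 0.554). All exposed males lay below all controls, with male PDE 2 far below the others, while in females the change was 0.65 ± 0.66 and the male minus female difference −2.32 (unadjusted p = 0.0136, adjusted p = 0.999).

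The female libraries, which the male fit did not use, gave the same sign for all 10 called genes, where 55.1% of all genes tested had the same sign in both sexes. On the same 7766 genes 3 (0.0386%) were called in females, and all 3 were among the 10: Xrp1, CG9377 and Arc1. Xrp1 had 31.1 ± 1.61 RPKM in female PDE and 18.7 ± 2.22 in female control (change 0.71 ± 0.07, adjusted p = 0.000491). CG9377 had 5.24 ± 1.55 RPKM in female PDE and 14.2 ± 3.62 in female control (−1.29 ± 0.18, adjusted p = 0.0185). Arc1 had 75.0 ± 15.2 RPKM in female PDE and 24.5 ± 4.19 in female control (1.57 ± 0.14, adjusted p = 0.000491), and here, unlike in males, the groups did not overlap.

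Of the Turandot genes, none was called in females, and the female groups overlapped for all 3. TotA had 32.5 to 1280 RPKM in female PDE and 4.40 to 77.1 in female control, with a change of 3.75 ± 0.91 (adjusted p = 0.498). TotC had a change of 3.26 ± 0.88 and TotM of 2.91 ± 0.80 in females (adjusted p = 0.659 each). CG14695 (0.76 ± 0.13) and Arc2 (1.05 ± 0.20) did not overlap between female groups but missed the adjusted threshold (0.115 and 0.187). Ugt35A1 had a change of 0.30 ± 0.17 in females, with overlap (adjusted p = 0.999).

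No gene's male change was called different from its female change. In the fit of all 25 libraries 0 of 7766 genes had an adjusted p under 0.05 for the male minus female change, 172 (2.21%) had an unadjusted p under 0.05 and the smallest was 0.000695. Among the 30 genes of smallest p in males, 28 had the same sign in females and 4 had an unadjusted p of the difference under 0.05: CG16739, CG1316, su(w[a]) and CG4887, all with a negative change in males (adjusted p = 0.999 each). For CG16739, with 2.04 ± 0.356 RPKM in male PDE and 2.89 ± 0.355 in male control, the female means were 2.22 ± 0.518 RPKM in PDE and 1.71 ± 0.494 in control (difference of the changes −0.61 ± 0.16). For CG4887 the female change was −0.09 ± 0.05, against −0.25 ± 0.05 in males.

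**Figure D5:**
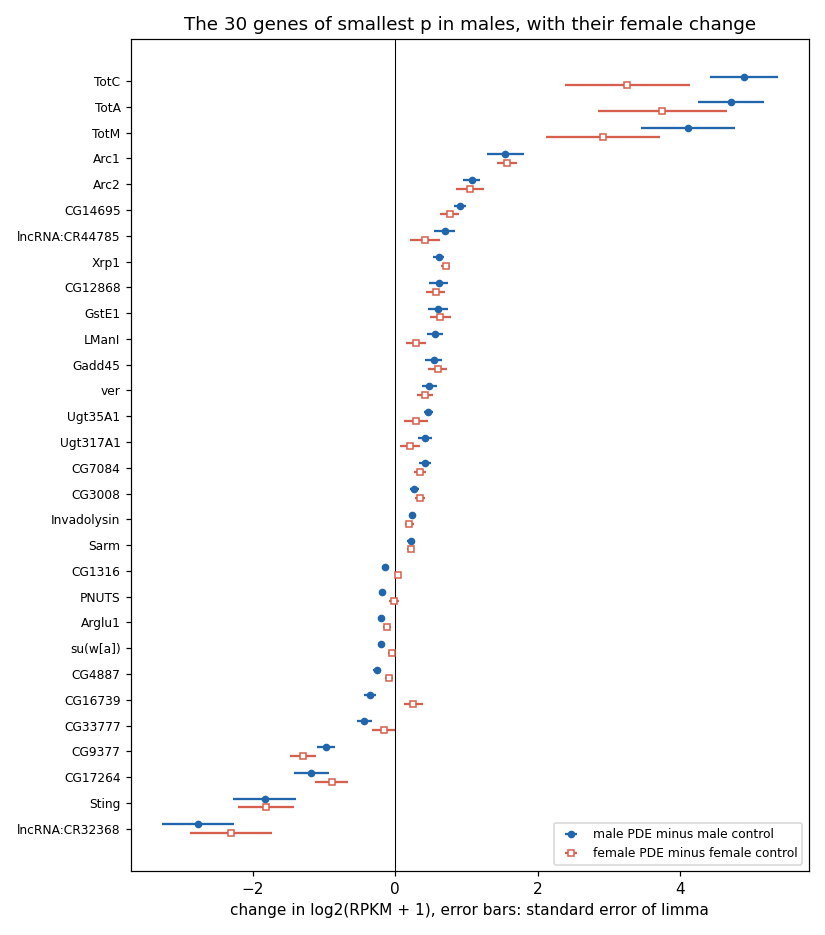
Changes in log2(RPKM + 1), PDE minus control, of the 30 genes of smallest p in males (blue, 13 libraries) with the same genes' changes in females (open orange, 12 libraries), error bars 1 limma standard error. Signs are shared by 28 of the 30 genes, CG16739 and CG1316 being the exceptions.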

How the data were processed

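RNA of brains was sequenced in 25 libraries, of which the 13 male ones were compared (PDE, n = 6; control, n = 7). Per the labels' protocols, a Maxwell simplyRNA tissue kit gave the RNA and the Takara SMART-Seq mRNA LP kit the libraries. STAR and dm6 are listed, without versions, in the submitters' processing notes. The counter, its handling of strand and of shared reads, and the gene models are not given. The authors deposited 1 table of RPKM values for 16060 genes, of which 13581 were above 0 in some library. Gene symbols and positions were taken from Ensembl BDGP6.54, in which 15997 identifiers matched.

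Reads were recovered from the RPKM steps for 13572 genes, summing to 99.3 to 99.6% of each library total; with the genomic span alone as length, 91.5% of values under 30 reads were whole within a tolerance of 0.001. The length was the genomic span, introns included, in 85.8% of genes with introns, so RPKM of intron-rich genes are low. The deposited scaling was kept, and log2(RPKM + 1) of the 7766 genes that reached 1 RPKM in 5 or more male libraries was fitted with limma 3.58.1 (trend) in R 4.3.3, with Benjamini-Hochberg adjustment over these genes. The 12 female libraries were fitted apart on the same genes, and the male minus female change in a fit of all 25. Library measures were compared by exact two-sided permutation. The limma fit of the male libraries was tested on simulated data. Python 3.11.15 was used for the rest.

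The text names the called genes, the genes of next smallest p up to 30, and 10 genes in any case; of the up to 4 members of smallest p that the rule allows per list, the first 2 were followed through the alternatives. Genes outside the rule are said to be picked after their values were seen. The comparison, the 38 pathway lists and the 7 marker lists were chosen with earlier results of these data known, and Clk and Doa were taken out of the splicing list after the files were read, since the first had been placed there by mistake. Alternatives changed the pseudocount, filter, scaling, libraries, covariates and model.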

Additional observations from a re-analysis of the deposited data

Results flagged for a closer look

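Dixon's ratio was taken on RPKM, not on the log2 scale of the fits, in 214 groups (107 genes in male PDE and male control). Each group held 6 or 7 libraries, and 18 values (8.41%) lay apart from the rest of their group. The rate of about 1 in 20 groups flagged by chance holds for independent groups of normally distributed values. RPKM of TotM were skewed in male PDE (lowest 3.67, median 29.1, highest 207), and the genes were chosen mostly by p or by list. The share of 8.41% is therefore no test of an excess or of any 1 library. Male PDE 6 gave 7 of the 18 values, all the highest of the exposed males. It had 1302 RPKM of TotA (next 522), 192 of TotC (next 74.3), 207 of TotM (next 34.6), 38.4 of BomT2 (next 14.7), 25.1 of Tep2 (next 14.8), 2.92 of Lip4 (next 2.04) and 1.93 of mdy (next 1.48).

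Male PDE 3 had 5078 RPKM of ninaE (next 1303), 477 of Rh5 (next 75.5) and 266 of Rh6 (next 65.6), and its retina markers summed to 8757 RPKM. Male PDE 1, the library of fewest reads, had 29.3 RPKM of Mlc2 (next 8.34), 8.47 of Tm2 (next 1.99) and 9.47 of Mcr (next 8.35). Male PDE 2 was lowest for ver, at 3.05 RPKM (next 4.16), and Idh3g, at 120 RPKM (next 137). In controls, male control 4 was highest for TotA at 24.5 RPKM (next 13.9), and male control 5 was lowest for ced-6 at 14.0 RPKM (next 17.4) and CCHa1 at 3.02 RPKM (next 4.10).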

How the results depend on the processing

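Of 2974 values of 107 named genes under alternatives, 2878 kept both sign and side of the threshold, 62 lost a call, 22 gained one and 12 changed sign. CG14695 and TotA passed under all 28 alternatives. Higher against lower calls, 9 to 1 as reported, were 9 to 3 with a pseudocount of 0.1, 8 to 2 with a minimum of 5 RPKM, 9 to 5 with the spread from all 25 libraries, 10 to 2 after quantile normalisation, 7 to 0 with the library total as a covariate, 6 to 7 without male controls 1 and 2, and 2 to 1 without the 4 retina-rich libraries. Leaving out 1 library gave 6 to 15 higher (15 without male PDE 2) and 1 to 3 lower genes (3 without male control 1, 2 without male control 6). The labels do not say whether equal replicate numbers mark a pair or a batch. Same-numbered deviations correlated at −0.717 to 0.480, over 0.1 in 3 of 6 pairs, and 2 of 6 were closest to their own number. Male PDE 3, at −0.717, was closest to male control 4 (0.756), and both were retina-rich. A shared batch cannot be told from these values. The replicate block gave 4 higher and 0 lower calls, against 6 and 1 for the same 12 libraries without it. With the library total as a covariate the sign changed for Keap1 (0.0255), CkIIalpha (−0.0405), DnaJ-1 (0.0154), Mlc2 (−0.301), Tm2 (−0.322), grim (0.011), Galphaq (−0.00177), ND-75 (0.009005), Mcr (−0.014), Slob (4.1e-05) and Shaw (−0.0241), and without male PDE 1 for Tm2, whose change was −0.00011 to 0.522 over the fits that left out 1 library. None of these genes passed in any fit, and the cause was not tested. The male minus female difference had 0 calls under each of the 3 alternatives tried. Low genes rest on few reads (CG17264 on 1 to 28 in male PDE).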

Other observations

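Of the genes whose male groups did not overlap, 9 lay outside the lists and the 30 genes of smallest p, and none passed the adjusted threshold. CG4250 had 15.5, 17.9 and 61.9 RPKM (lowest, median and highest) in male PDE, against 6.85, 10.1 and 15.4 RPKM in male control (change 1.07 ± 0.28, limma adjusted p = 0.363), with male PDE 6 the highest. CG14615 had 3.47, 3.54 and 4.28 RPKM in male PDE, against 2.28, 3.05 and 3.22 RPKM in male control (0.28 ± 0.07, adjusted p = 0.291), and its female change was 0.28 ± 0.07. CROT, a carnitine acyltransferase of fatty acid breakdown, had 7.26, 7.86 and 8.91 RPKM in male PDE, against 6.26, 6.83 and 7.17 RPKM in male control (0.19 ± 0.05, adjusted p = 0.291). sxc, the enzyme that adds N-acetylglucosamine to nuclear and cytosolic proteins, had 20.9, 21.3 and 23.3 RPKM in male PDE, against 18.7, 19.5 and 20.4 RPKM in male control (0.14 ± 0.03, adjusted p = 0.291).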
